A study of Drosophila melanogaster with 4 samples.

Results

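Long stretches of the fly chromosomes carried no region enriched for RNA polymerase II (Pol II) in any of the 3 deposited lists, and these stretches are described here. They were selected on the regions themselves: the enriched regions of replicate 1, replicate 2 and the replicate set were merged on the arms 2L, 2R, 3L, 3R, 4 and X, and every space of 50 kb or more between neighbouring merged regions was kept, arm ends left out. Of 7961 spaces between 7967 merged regions, 444 met this length and are named gaps below. A gap holds no region listed as enriched. Whether Pol II was absent from it cannot be read from the lists, which give neither reads nor total depth outside regions.

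Pol II was measured by ChIP-seq (sequencing of the DNA that an antibody pulls down from chromatin) on nuclei from Drosophila melanogaster larvae of instar 3, wild-type Oregon-R, with no treatment named. There were 2 ChIP replicates, made with an antibody that the labels give as RNA Pol II (abcam), and 2 input libraries of chromatin without immunoprecipitation. The labels do not say whether the larvae of the replicates were collected separately, and the spread between replicates may therefore be technical. On the 6 arms replicate 1 listed 7309 enriched regions, replicate 2 listed 6371 and the replicate set 8000. They covered 19.9% of the bases in replicate 1, 17.6% in replicate 2 and 23.8% in the merged lists. Each region has a log2 score, taken here as the ratio of ChIP to input. Its standard error from counting was at most 0.13 for the median region of replicate 1, 0.12 for that of replicate 2 and 0.09 for that of the replicate set.

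Pol II transcribes all protein-coding genes, and its enrichment in ChIP-seq marks promoters and the bodies of genes in use. Fly chromosomes alternate between gene-dense stretches of housekeeping genes, used in most cells, and long domains of genes that are silent in most tissues and used only in a few cells or stages. Close to the centromeres the arms pass into pericentric heterochromatin, which is compact and rich in repeats. A larva is a mixture of tissues, many with polytene chromosomes (bundles of many aligned DNA copies), so a gene active in few cells gives little signal in whole-larva chromatin.

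The gaps took up 37.9 Mb, which was 31.5% of the 6 arms. In each replicate alone the same measure gave more, because the other list's regions no longer interrupted the stretches. Replicate 1 alone had 479 gaps over 36.2% of the arms and replicate 2 alone had 490 over 38.3%, a mean of 37.2% ± 1.5 (SD, n = 2). Few in number, the gaps held a large part of the sequence: they were 5.58% of all spaces between merged regions and 41.4% of the bases in such spaces. The spaces in general were short, with a median of 3.37 kb, and 24.8% of them were under 1 kb.

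Among the gaps, lengths fell off steeply. The median was 76.4 kb, with quartiles of 58.7 and 100 kb, and 217 of the 444 were under 75 kb. A further 112 measured 75 to 100 kb, 90 measured 100 to 150 kb, and 25 reached 150 kb. These 25 held 12.2% of the gap bases. The threshold cut through a continuous range: the shortest members measured 50004 and 50041 bp on the X and 50023 bp on 3R, and the longest spaces left out measured 49635 bp on the X, 49627 bp on 3L and 49599 bp on 2L.

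**Figure D1:**
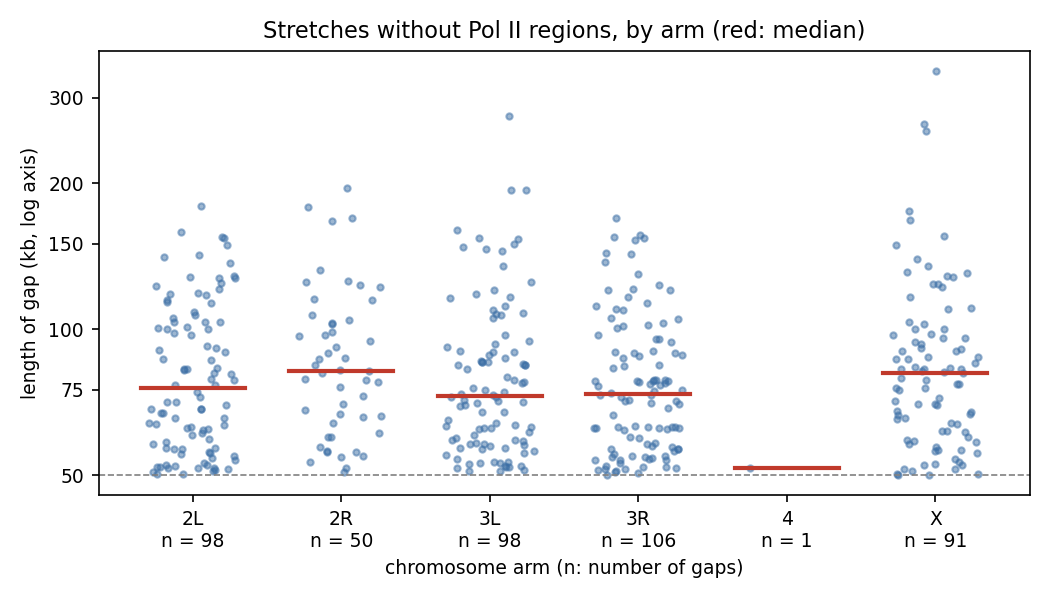
Length of each of the 444 gaps (kb, log axis) by chromosome arm; points are gaps, spread sideways for legibility, red bars are medians and the dashed line is the 50 kb minimum. Medians of the 5 large arms lie between 72.9 and 82.2 kb, the 4 gaps over 200 kb lie on 3L and the X, and chromosome 4 has a single gap of 51.6 kb.

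The longest gap lay on the X, 21502219 to 21842941, and measured 341 kb (coordinates here are on FlyBase release 5, per the file headers). The stretch free of regions around it was 340.9 kb in replicate 1 and 340.7 kb in replicate 2, so both lists set nearly the same edges. The region on its distal side had a fold of 2.32 in replicate 1 and of 4.32 in replicate 2, and the one on its centromeric side 1.42 and 1.44. Each list adds its own constant to its scores, so these folds are not compared between lists.

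The next gap in length, 276 kb, was on 3L, 23745037 to 24020643, with 281 kb free in replicate 1 and 276 kb in replicate 2. Its high-coordinate border stood at 1.54-fold in replicate 2 and 1.02-fold in the replicate set, and was not listed in replicate 1. Shortly after this gap, one of 193 kb ran from 24030977 to 24224173. Another 3L gap of 193 kb ran from 22466379 to 22659701. All 3 had their midpoint within the 2 Mb at the centromeric end of that arm.

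The X also held the gaps ranked 3 and 4 by length, and both lay far from the centromere. The first of these, 7236627 to 7501417, measured 265 kb, with 269 kb free in each replicate, because its low-coordinate border was listed in the replicate set alone. The other, 14217287 to 14473795, measured 257 kb in both replicates and in the merged lists. A gap of 175 kb, 13893267 to 14068585, lay at lower coordinates, free over 185 kb in both replicates. A shorter gap lay between them, 1 merged region before the 257 kb gap.

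On 2R the longest gap measured 195 kb, 9511671 to 9707112, and both replicates gave 195 to 196 kb there. On 2L it measured 179 kb, 21838963 to 22018295, with 182 kb free in replicate 1 and 188 kb in replicate 2. The 2R gap of 179 kb from 763121 to 941987 was bordered on both sides by regions of replicate 1 alone: replicate 2 was free over 256 kb there and the replicate set over 241 kb. On 3R the longest gap measured 169 kb, 23973533 to 24142759, which replicate 2 gave as 170 kb, whereas replicate 1 was free over 330 kb. Its low-coordinate border was weak, at 1.14-fold in replicate 2 and 1.04-fold in the replicate set, and was not listed in replicate 1.

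The arms differed in how much of them lay in gaps. The X had 91 gaps over 36.8% of its length, 2L had 98 over 35.9%, 3L had 98 over 33.8% and 3R had 106 over 30.6%. The arm 2R stood below them, with 50 gaps over 21.4% of its length, which is 2.36 gaps per Mb against 3.80 to 4.26 on the other 4 large arms. The replicates alone gave the same order, with 26.8% ± 2.1 of 2R in gaps and 36.1% ± 0.53 of 3R, the next lowest (SD, n = 2 each). The gaps of 2R were fewer but not shorter, with a median of 82.2 kb against 75.5 kb on 2L, 72.9 kb on 3L, 73.5 kb on 3R and 81.1 kb on the X. On 2R, 27.8% of the bases lay in merged regions, against 20.9% to 23.9% on the other large arms. Input reads, recovered from the scores as lower limits, were fewer on the X. In its regions that border no gap the median per kb was 72.8 in replicate 1 and 87.7 in replicate 2. The other 4 large arms had 97.3 to 105 and 116 to 120. The part of this in the gaps of the X was not tested.

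Chromosome 4, a short chromosome whose genes are active within heterochromatin-like surroundings, had 1 gap among its 119 spaces. It ran for 51.6 kb from 395467 to 447087, 3.82% of the chromosome, and rested on weak borders: the region on its low-coordinate side stood at 1.40-fold in replicate 2 and was not listed in replicate 1, and the one on the other side was listed in the replicate set alone, at 1.29-fold. Each replicate alone had 2 gaps there, over 8.66% of the chromosome in replicate 1 and 8.69% in replicate 2.

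Whether gaps gathered near the centromeres was read from the 2 Mb at the centromeric end of each arm sequence, the high-coordinate end of 2L, 3L and the X and the low-coordinate end of 2R, 3R and 4. By their midpoints 43 of the 444 gaps, 9.68% (95% Wilson interval 7.27 to 12.8), lay there, and these windows made up 9.43% of the sequence. Chromosome 4, shorter than 2 Mb, counted whole; without it the shares were 9.48% of the gaps and 8.40% of the sequence. The number of gaps was thus close to what the length of these windows gives. Of the 25 gaps of 150 kb or more, 7 lay there, 28% (95% Wilson interval 14.3 to 47.6). Both intervals treat the gaps as independent, although neighbouring gaps can share a bordering region, and no test was made. Within 2 Mb of the telomeric ends lay 33 gaps, 7.43%.

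The arms went different ways in these windows. On the X, 67.7% of the bases within 2 Mb of the centromeric end lay in gaps, against 33.7% of the rest of the arm, and on 3L 62.9% against 31.2%. The gaps there were longer, with medians of 122 kb against 78.2 kb on the X (11 gaps within the window) and 126 kb against 71.3 kb on 3L (10 gaps). On 2L and 2R the shares were nearly level, at 37.9% against 35.7% and at 24.1% against 21.1%. The arm 3R had less of this window in gaps than of the rest, 24.1% against 31.1%. Replicates 1 and 2 alone gave 27.6% and 28.05% within the window of 3R, against 36.4% and 37.2% on its rest.

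The replicates agreed in direction on all 5 large arms but not in size on 2L and 2R. On 2R replicate 1 alone had 34.6% of the window in gaps against 24.4% of the rest, and replicate 2 had 47.4% against 26.3%. On 2L replicate 1 had 41.5% against 40.2% and replicate 2 had 51.8% against 42.5%. On the X the values within the window were 74.9% in replicate 1 and 72.6% in replicate 2, and on 3L 73.1% and 81.1%.

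Away from the centromeres the gaps were spread along the whole of each arm. Of 117 whole bins of 1 Mb, counted from the centromeric end, every bin held the midpoint of at least 1 gap. The share of a bin in gaps ranged from 6.56% to 74.1%, with a median of 29.5%, and 15 bins lay at 50% or more. The bin fullest of gaps was the first Mb of the X, and on 3L it was also the first, at 73.0%. The fullest bin of the other arms lay inside them: 5 to 6 Mb from the centromeric end on 2L, at 73.7%, 15 to 16 Mb on 3R, at 60.1%, and 16 to 17 Mb on 2R, at 52.2%. The most gaps in 1 bin were 9, on 3L and on 3R.

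**Figure D2:**
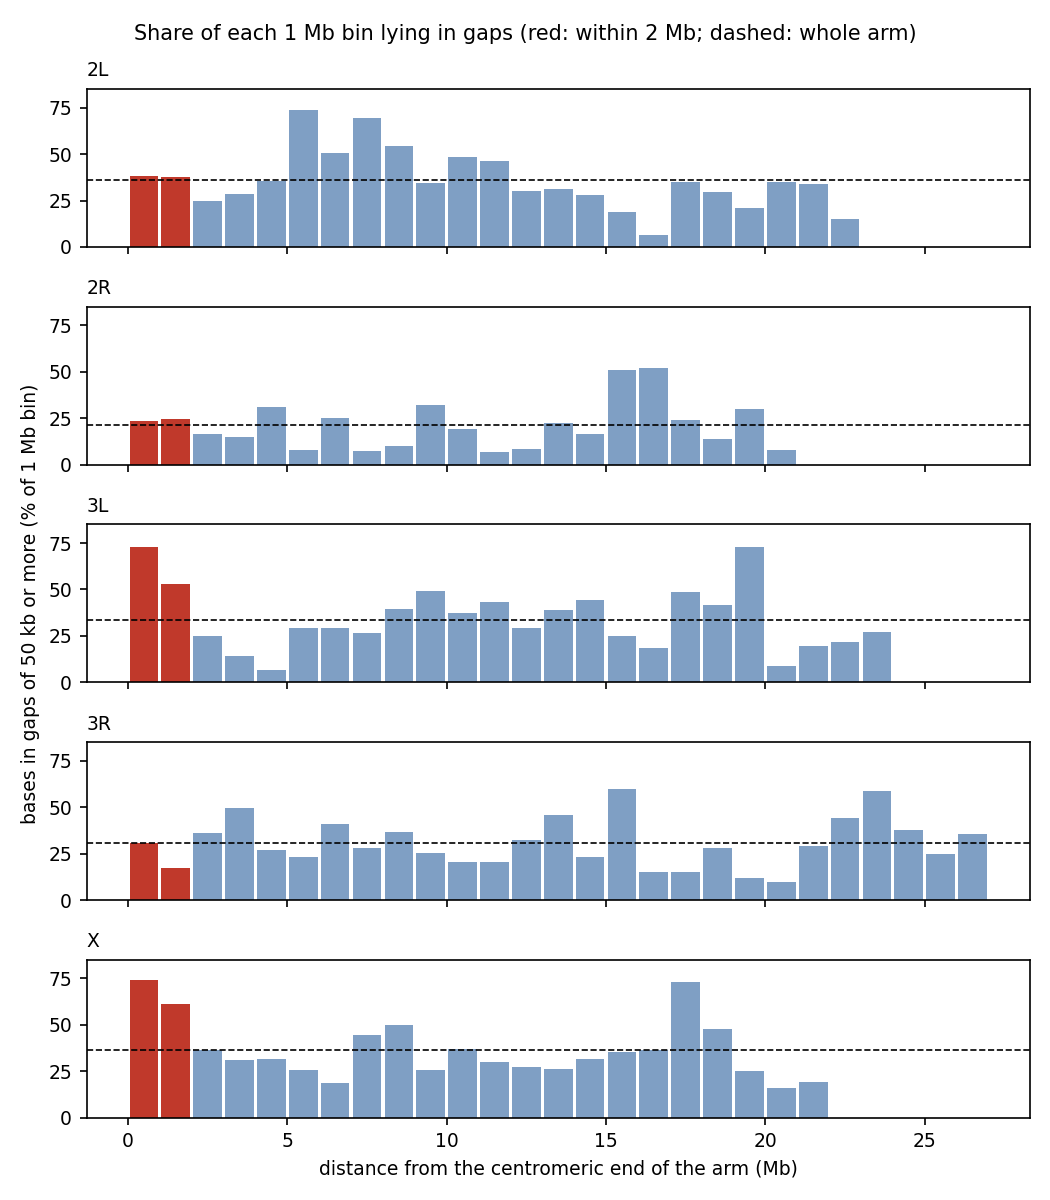
Percent of bases in gaps of 50 kb or more in whole 1 Mb bins by distance from the centromeric end (Mb), 1 panel for each large arm; red bars are the first 2 Mb and the dashed line is the whole arm. The first bin stands at 73.0% on 3L and 74.1% on the X, far above their arm levels of 33.8% and 36.8%, while the red bars of 3R stand at 30.9% and 17.3% beside its 30.6%.

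Other stretches of the arms were free of gaps. The longest, on 3L from 20686248 to 22130403, ran for 1444 kb with 120 merged regions that covered 25.8% of it. On 3R a stretch of 1063 kb from 20281859 to 21345148 was 30.9% covered. Of the 10 longest such stretches, 4 lay on 2R, from 928 to 992 kb long, and 1 took up the high-coordinate part of chromosome 4, 905 kb with 42.3% covered.

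The share of spaces followed by a gap was higher for gaps than for shorter spaces. After a gap of 50 kb or more, the next space on the arm was again one in 82 of 443 cases, 18.5% (95% Wilson interval 15.2 to 22.4). After a shorter space this was so in 362 of 7512 cases, 4.82% (4.36 to 5.33). Neighbouring cases share their regions and are not independent, and no test was made. In all, 155 gaps (34.9%) had a neighbouring gap across a single merged region: 65 runs of 2 gaps, 7 runs of 3 and 1 run of 4.

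The run of 4 lay on 2L from 15768405 to 16230495. It spanned 462 kb, of which 98.8% was gap, with 3 merged regions between its gaps. Of the 7 runs of 3, those with the longest span were a 407 kb run of 3 gaps on 2R, 15721575 to 16129024, and a 328 kb run of 3 on 3R, 23815030 to 24142759. On 3L a run of 3 from 23338315 to 23660453 spanned 322 kb. Between consecutive gaps of an arm the median distance was 92.6 kb over all arms, 62.9 kb on 3L and 231 kb on 2R. It was under 10 kb for 94 of 438 pairs of consecutive gaps, and the longest was 1444 kb, the stretch on 3L above.

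The 82 merged regions that divided neighbouring gaps were isolated sites of Pol II enrichment, and they were small. Their median width was 2022.5 bp and the widest measured 10.8 kb (10827 bp). All 3 lists held 55 of them, 67.1%, and 12 were in 1 list only. Among merged regions that touched no gap, the median width was 2305 bp and 65.5% were in all 3 lists. The regions standing alone between gaps were thus found in every list about as often as the others.

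In the flanks of the gaps, coverage past the bordering region lay mostly somewhat below the level of the arms. The first 10 kb outward from a gap's edge were 33.4% covered in replicate 1 and 30.9% in replicate 2, which the rule fixes in part because a region must start there. From 10 to 20 kb outward, replicate 1 covered 17.7% and replicate 2 covered 15.7%, against 19.9% and 17.6% of all 6 arms. At the same distance from spaces under 10 kb it was 32.1% and 27.7%. At 90 to 100 kb it was 18.5% and 16.1% beside the gaps, against 21.8% and 19.3% beside spaces under 10 kb. Over the 19 bins from 10 to 200 kb, coverage beside the gaps ranged from 17.5% to 20.6% in replicate 1 and from 15.4% to 18.0% in replicate 2. It was below the arm level in 17 of these bins in replicate 1 and in 18 in replicate 2. Flanks overlap and can reach into other gaps, so the bins are not independent. Spaces under 10 kb lie where these same lists hold regions close together, so the choice fixes part of the contrast with them.

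**Figure D3:**
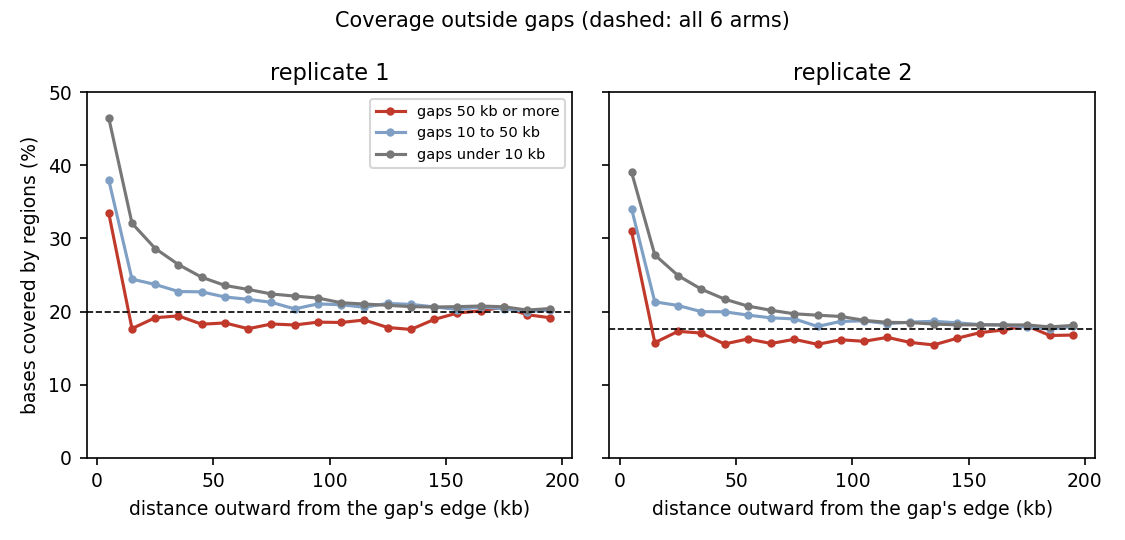
Bases covered by regions (%) in 10 kb bins outward from the edges of gaps of 50 kb or more (red), of spaces of 10 to 50 kb (blue) and of spaces under 10 kb (grey), in replicate 1 and replicate 2; dashed lines are all 6 arms. At 10 to 20 kb the red line lies at 17.7% in replicate 1 and 15.7% in replicate 2. From 10 to 200 kb it lies under the grey line in all 19 bins and under the blue line in 18, in each replicate. Short spaces were picked from the lists that measure coverage, which fixes part of this contrast.

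The regions that border the gaps were described within each list, taking the listed region nearest to each of the 888 sides. Their scores come from the same comparison of ChIP with input that chose the gaps, so they are given without a test. In replicate 1, the 651 bordering regions had a median score of 0.79, against 0.78 for the other 6658 regions. In replicate 2, the 621 bordering regions had a median of 0.97, against 1.04 for the other 5750. The replicate set gave 0.66 for 780 bordering regions and 0.61 for the others. The difference, bordering minus other, was 0.014 in replicate 1 and −0.065 in replicate 2. Their mean was −0.025 ± 0.056 (SD, n = 2), so the medians did not differ beyond the spread between replicates.

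The medians hid a wider spread of scores at the borders. In replicate 1, 29.6% of the bordering regions fell in the lowest quartile of the list by score and 29.3% in the highest, leaving 19.5% and 21.5% for the quartiles between. Replicate 2 gave 30.0% and 27.5% for the lowest and highest, and 22.4% and 20.1% for those between. Among the top 10% of regions by score, 12.3% bordered a gap in replicate 1 and 14.6% in replicate 2, against 8.91% and 9.75% of all regions. Among the top 1% the counts were small. In replicate 1, 2 of 74 regions (2.70%) bordered a gap, below the 8.91% of all its regions. Replicate 2 had 7 of 64 (10.9%), near the 9.75% of all its regions. The replicate set had 11 of 80 (13.8%), against 9.75% of all its regions. Among these 11 are regions of 1.00 to 1.17 kb, ranked 10, 15 and 20 of 8000, that neither replicate listed. Their fold intervals start at 1.21 to 1.51 and reach 75.4 to 90.5.

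**Figure D4:**
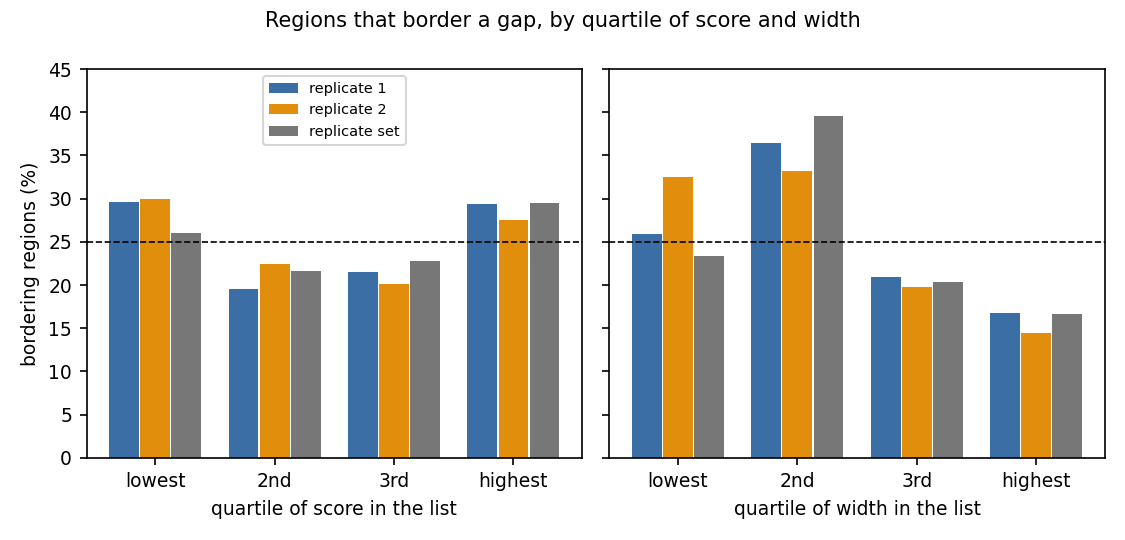
Percent of the bordering regions in each quartile of score (left) and of width (right) of their own list, in replicate 1 (blue), replicate 2 (orange) and the replicate set (grey); the dashed line at 25% is an even spread. Lowest and highest score quartiles stand above the line in all 3 lists, and the widest quartile stands below it, at 16.7%, 14.5% and 16.7%.

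The direction of the score difference varied by arm. On 3L bordering regions had the higher median in each list, 0.80 against 0.75 in replicate 1, 1.15 against 1.05 in replicate 2 and 0.83 against 0.57 in the replicate set. On 3R they also had the higher one, 0.79 against 0.74, 0.99 against 0.98 and 0.63 against 0.56. On the X they had the lower one, 0.83 against 0.87, 0.91 against 1.11 and 0.59 against 0.68, and on 2L likewise. In replicate 1 the differences were 0.045 on 3R, −0.035 on the X and −0.049 on 2L. Each was smaller in size than the SD of 0.056 between replicates over all arms. So was the 0.019 of replicate 2 on 3R. Larger in size were 0.060 on 3L in replicate 1, and 0.106 on 3L, −0.201 on the X and −0.080 on 2L in replicate 2. On 2R the replicates went opposite ways, with 0.87 against 0.79 in replicate 1 and 0.97 against 1.04 in replicate 2. These medians rest on 70 to 160 bordering regions per arm and replicate.

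In width the borders lay on 1 side of the other regions. The median bordering region was 2134 bp wide in replicate 1, against 2280.5 bp for the others. In replicate 2 it was 2154 bp wide, against 2317.5 bp. The difference was −155 bp ± 12 (SD, n = 2). Upper quartiles were 2793 against 3745 bp in replicate 1 and 2615 against 3619 bp in replicate 2. Wide regions, of at least 10 kb, were 1.84% of the bordering and 2.94% of the other regions in replicate 1, and 1.61% and 3.06% in replicate 2.

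Read support was also lower at the borders. The median input reads per kb, recovered from the scores in lowest terms and so lower limits, were 82.9 in bordering and 93.6 in other regions of replicate 1, and 94.7 and 105 in replicate 2, ratios of 0.89 and 0.90. Arm by arm, input was lower at the borders on all 5 large arms in replicate 2 and on 4 of them in replicate 1, where 3R had medians of 104.9 and 104.5. The median ChIP reads per kb showed ratios of 0.92 and 0.90. The part of this lower input in where regions were listed was not tested.

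By place and by length of gap the borders differed in score. Those of gaps within 2 Mb of the centromeric end had a median score of 0.72 in replicate 1 (54 regions) and 0.67 in replicate 2 (49 regions). Those of gaps farther away had 0.83 (597 regions) and 1.00 (572 regions). Those of gaps of 150 kb or more had 0.61 in replicate 1 (41 regions) and 0.70 in replicate 2 (39 regions). For gaps of 50 to 75 kb the medians were 0.87 (334 regions) and 1.11 (319 regions). The classes between kept no order: gaps of 75 to 100 kb had 0.72 and 0.83, below the 0.84 and 1.05 of gaps of 100 to 150 kb. These classes overlap in their gaps, since 7 of the 25 longest lie within the centromeric 2 Mb.

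Of the 888 sides, 623 (70.2%) were bordered by regions of all 3 lists and 114 (12.8%) by the replicate set alone. Replicate 1 alone bordered 24 and replicate 2 alone 8. Both sides were found in both replicates for 215 gaps, 48.4%. The stretch free of regions around a member differed between the replicates by a median of 0.31 kb, by at most 1 kb for 262 gaps and by more than 10 kb for 103.

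A few gaps started beside regions of high score. The highest score among replicate set regions that border a gap was that of a 16.2 kb region on 3R, 7773690 to 7789858, with a fold of 13.7 (95% counting interval 13.2 to 14.1) and rank 8 of 8000. Each replicate listed 2 regions across this stretch, and the higher-scoring of them had a fold of 14.7 in replicate 1 and of 21.4 in replicate 2. It bordered a gap of 59.7 kb. The fifth, on the X from 5233050 to 5235390, had a fold of 8.88 (7.72 to 10.2), and lay beside a gap of 70.0 kb. Replicate 1 gave 8.07 there and replicate 2 gave 9.79. The 3 between them, on 2L from 21453400, on 3R from 3176872 and on the X from 11956092, were 1.00 to 1.17 kb wide and listed in neither replicate. Their intervals ran from 1.51 to 90.5-fold, from 1.36 to 82.9-fold and from 1.21 to 75.4-fold. These intervals hold counting error alone, and they are upper limits of it, since a ratio in lowest terms can hide larger counts.

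Gaps defined in 1 replicate were then looked for in the other, a comparison in which the list that chose the stretches and the list that was read were separate. In the 479 gaps of replicate 1, regions of replicate 2 covered 0.51% of the bases, against 2.13% over all its spaces of any length and 17.6% over the arms. In the 490 gaps of replicate 2, regions of replicate 1 covered 1.36%, against 4.89% over all spaces and 19.9% over the arms. The mean was 0.93% ± 0.60 (SD, n = 2). Regions that cross an edge count in these shares and weigh more in short spaces, which raises the values over all spaces. Of spaces under 10 kb, 97.9% in replicate 1 and 91.3% in replicate 2 held no whole region of the other replicate. In 402 of the replicate 1 gaps, 83.9%, no region of replicate 2 lay wholly inside, and 454, 94.8%, still held 50 kb free of regions in replicate 2. For replicate 2 these counts were 343 (70.0%) and 444 (90.6%).

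The regions found inside the other replicate's gaps were weak and narrow beside the rest of their lists. This choice favours low scores, since the other replicate did not list these regions. Scores of regions wholly inside shorter spaces were not compared, so weakness is not shown to be particular to gaps. The 88 regions of replicate 2 wholly inside replicate 1 gaps had a median score of 0.34, against 1.05 for the rest of that list, and median widths were 1843 against 2294 bp. The 279 regions of replicate 1 inside replicate 2 gaps had 0.55 against 0.81, and 1718 against 2281 bp. Per Mb of gap there were 2.02 regions of replicate 2 and 6.06 of replicate 1. In spaces of 20 to 50 kb there were 4.07 and 13.6 per Mb.

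**Figure D5:**
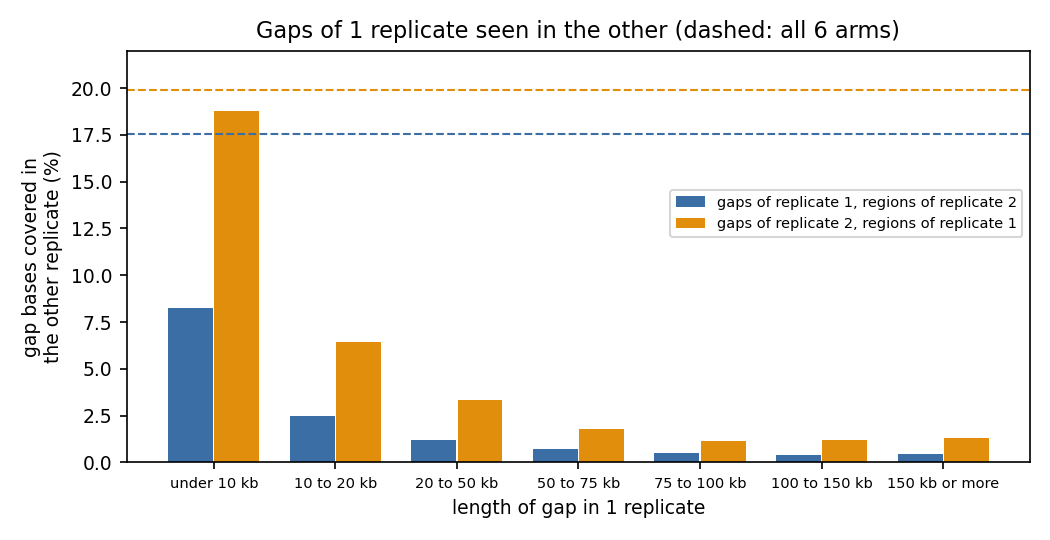
Percent of the bases of a replicate's gaps that regions of the other replicate cover, by gap length (kb), for gaps of replicate 1 (blue) and replicate 2 (orange); dashed lines are the other replicate's coverage of all 6 arms, 17.6% and 19.9%. Coverage falls with length to 0.69% and 1.80% at 50 to 75 kb, and stays between 0.37% and 1.31% in longer gaps. Regions that cross an edge count too, and they weigh more in short spaces.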

How the data were processed

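The submitters' processing notes name Bowtie 0.12.7, a read aligner. The authors deposited 3 lists of regions on FlyBase release 5, per the file headers, each region with 1 log2 score. For the region caller, its threshold and the make-up of the score: not given in the sources used here. Once a constant of its list was subtracted, each score was the log2 of a fraction of whole numbers (7524, 6489 and 8320 scores, relative tolerance 1e-11, denominators up to 20000). These numbers are read as ChIP and input reads in lowest terms, so they are lower limits. Summed over enriched regions of the arms they came to 5.01, 4.65 and 10.7 M ChIP and 1.95, 1.90 and 4.79 M input reads.

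Enriched regions of the 3 lists were merged where they overlapped or touched (Python 3.11.15, numpy 2.4.6, pandas 2.3.3, scipy 1.17.1, matplotlib 3.10.9), which gave the same regions as bedtools 2.31.1. Merging and the recovery of ratios were tested on simulated data. Results are descriptions without tests, since all 3 lists chose the gaps. Errors are the SD over the 2 replicates. Folds are 2 to the power of the score, with 95% normal intervals on the log scale.

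The members and the lists were chosen with earlier results of these data known. Gaps named are the 10 longest, the longest of each arm, the longest run, 3 on each side of the threshold, and those beside the 5 highest-scoring bordering regions. The other runs, bins and stretches were chosen after their values were seen. No gene is named and no sequence printed, since a genome and gene positions on release 5 were not used here; unsequenced runs of the assembly inside gaps were not analysed.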

Additional observations from a re-analysis of the deposited data

Results flagged for a closer look

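Regions that the authors deposited as depleted entered none of the comparisons above. In the replicate set, 47 depleted regions lay on the 6 arms, and 12 overlapped a gap, above the limit of 3 taken for a count of 0. Of the 12, 7 lay wholly inside a gap. The rest crossed a gap's edge and reached onto a merged enriched region that borders it. Such a depleted region on 3R, 25202456 to 25204204, spanned a merged enriched region found in 1 list only. These 12 are 25.5% of the depleted regions, while gaps made up 31.5% of the arms. Their scores ran from −0.25 to −0.011, close to 0. In replicate 2 both depleted regions overlapped a gap, 1 of them wholly inside it, and in replicate 1 none of 6 did.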

How the results depend on the processing

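With the shortest gap set at 100 kb there were 115 gaps over 12.7% of the arms, 13.9% of them near the centromeric end. At 30 kb there were 830 over 43.8%, with 10.2% near it. The 2 replicate lists alone gave gaps over 34.2% of the arms. Their score difference of bordering regions was −0.022 (mean of both), against 0.049 in the replicate set, of opposite sign. With the gaps of all 3 lists the mean of both replicates was −0.025, so the values compared here differ in the list scored. Why the lists differ in sign was not tested. The higher-scoring 50% of each list left gaps over 49.3% of the arms, since fewer regions remain. Windows of 1 and 3 Mb held 4.95% and 13.7% of the gaps. With 1 replicate list left out, 9.62% to 10.2% of the gaps lay near the centromeric end. Of 34 alternative values 22 moved by less than the spread between replicates (for counts, by under 1.5 times), and these 12 moved more. The 4 values for gaps of 1 replicate seen in the other, from 0.81% to 1.19%, were chosen after seeing the data and all stayed. No paired analysis was possible because no test was made and no list of input regions was used here. Total depth is unknown, so a weakly occupied stretch and an unoccupied one cannot be told apart.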

Other observations

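In 8 gaps of replicate 2, chosen after their values were seen, 5 or more regions of replicate 1 lay wholly inside, and no gap of replicate 1 held 5 regions of replicate 2. The fullest was a stretch of 103 kb on 3L, 22282952 to 22386038, with 18 regions of replicate 1 and 22 of the replicate set and none of replicate 2. The median score of these 18 was 0.57 (1.48-fold), and the highest was 0.76. On 2L a stretch of 66.1 kb, 4478080 to 4544162, held 13 regions of replicate 1 with a median score of 0.58 and a highest score of 2.68. The other 6 held 5 to 9 regions each, with median scores from 0.48 to 0.73. Median input reads per kb of the regions inside ran from 20.1 to 98.3 over the 8 stretches, against 92.6 for the whole replicate 1 list, and their part in this was not tested. In 3 of the 8, the stretch lay within 2 Mb of the centromeric end, on 2L, 2R and 3L. Over a longer distance but with few regions, the lists also differed on 3R. Replicate 1 was free of regions over 330 kb there. Regions of replicate 2 and the replicate set divided the stretch into 3 gaps, of 57.5, 97.4 and 169 kb in the merged lists. A single merged region lay between neighbouring gaps. The one before the 169 kb gap stood at 1.14-fold in replicate 2 and 1.04-fold in the replicate set.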
